A study of Mus musculus with 18 samples.

Results

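The genes of the major histocompatibility complex (MHC) and of antigen processing were followed in metastases that MC38 cells, a line from a mouse colon carcinoma, had formed in the liver. They were chosen by name: protein-coding genes whose symbol begins with H2-, together with B2m, Tap1, Tap2, Tapbp, Psmb8, Psmb9, Psmb10, Nlrc5, Ciita, Cd74 and Erap1. There were 35 of them among the 22137 genes of the diet table and the same 35 among the 24778 genes of the hairpin table. Of these, 23 belong to the class I pathway (14 heavy chains and 9 genes of the machinery) and 11 to the class II pathway. The remaining one, H2-Ke6, is named for its place in the MHC but encodes a hydroxysteroid dehydrogenase.

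Tumour cells had been injected into the spleen of mice labelled WT, and RNA of the liver tumour tissue was sequenced in 18 libraries. The diet table held 5 libraries of tumours from mice on high-fat food (HFD) and 5 from mice on low-fat food (LFD). The hairpin table held libraries of tumours labelled with a hairpin against Yap (shYap, n = 4) or with a control hairpin (shCon, n = 4). All of these were from mice on the high-fat diet. The labels give neither the age or sex of the mice nor whether each library came from a separate animal, so p-values measure the spread between these libraries, which may be in part technical.

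Class I molecules are a heavy chain bound to beta-2 microglobulin (B2m), and they show peptides from inside the cell to CD8 T cells. The peptides are cut by the proteasome, whose interferon-inducible subunits are Psmb8, Psmb9 and Psmb10. Tap1 and Tap2 form the pump that brings them into the endoplasmic reticulum, Tapbp (tapasin) holds the empty heavy chain there, and Erap1 trims the peptides to length. Nlrc5 is the transactivator of class I genes. Class II molecules pair an alpha with a beta chain, are made mainly by dendritic cells, B cells and activated macrophages, and show peptides from endosomes to CD4 T cells. Cd74 is the invariant chain that guards their groove, H2-DM exchanges the peptide, H2-O restrains H2-DM, and Ciita is the class II transactivator. Both kinds of promoter are known for an X box and a Y box (CCAAT), and class I promoters also for sites of NF-kappa B and of interferon regulatory factors.

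The promoters of 8 of these genes are shown as examples. Each is given as the 250 bases before the RefSeq start in GRCm38.p6, 5′ to 3′ on the strand of the gene. Whether the motifs bear on the differences between the diets was not tested. Capitals mark matches, on either strand, to the Y box (CCAAT), an X box core (AG, 2 bases of any kind, AC, 1 base and GATG), a kappa B site (GGG, 2 bases and TTCCC) and an interferon-stimulated response element (GAAA, 2 bases and GAAA). H2-K1 and H2-D1 are the classical heavy chains, H2-Q7 and H2-Q10 nonclassical ones with larger differences between the diets (H2-Q1, also large, had no window), B2m the shared light chain, and H2-Aa, H2-Eb1 and H2-DMb1 stand for class II.
H2-K1 (chr17:34000348-34000597, minus strand): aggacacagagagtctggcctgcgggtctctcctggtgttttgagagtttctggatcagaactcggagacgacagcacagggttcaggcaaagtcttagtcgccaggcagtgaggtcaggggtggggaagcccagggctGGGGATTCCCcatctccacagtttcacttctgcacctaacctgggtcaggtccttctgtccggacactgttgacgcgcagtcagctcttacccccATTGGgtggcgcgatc
H2-D1 (chr17:35262844-35263093, plus strand): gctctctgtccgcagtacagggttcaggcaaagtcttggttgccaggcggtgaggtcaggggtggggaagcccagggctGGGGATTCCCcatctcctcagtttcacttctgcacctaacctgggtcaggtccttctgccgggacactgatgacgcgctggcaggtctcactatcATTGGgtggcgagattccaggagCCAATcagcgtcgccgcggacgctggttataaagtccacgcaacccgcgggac
H2-Q7 (chr17:35438905-35439154, plus strand): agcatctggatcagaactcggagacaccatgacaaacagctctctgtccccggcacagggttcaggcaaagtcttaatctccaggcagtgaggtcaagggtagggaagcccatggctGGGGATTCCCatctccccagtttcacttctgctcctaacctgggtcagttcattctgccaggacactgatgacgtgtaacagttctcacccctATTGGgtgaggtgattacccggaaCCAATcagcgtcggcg
H2-Q10 (chr17:35469839-35470088, plus strand): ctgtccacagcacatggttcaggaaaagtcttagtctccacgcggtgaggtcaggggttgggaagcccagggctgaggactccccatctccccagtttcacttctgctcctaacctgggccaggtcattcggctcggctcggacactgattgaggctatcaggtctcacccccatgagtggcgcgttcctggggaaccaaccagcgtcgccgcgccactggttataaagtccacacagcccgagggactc
B2m (chr2:122147437-122147686, plus strand): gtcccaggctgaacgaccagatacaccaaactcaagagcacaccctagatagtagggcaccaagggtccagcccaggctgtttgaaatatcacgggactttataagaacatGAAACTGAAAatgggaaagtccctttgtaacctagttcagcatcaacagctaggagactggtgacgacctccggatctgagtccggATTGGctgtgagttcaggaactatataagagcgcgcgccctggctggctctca
H2-Aa (chr17:34287824-34288073, minus strand): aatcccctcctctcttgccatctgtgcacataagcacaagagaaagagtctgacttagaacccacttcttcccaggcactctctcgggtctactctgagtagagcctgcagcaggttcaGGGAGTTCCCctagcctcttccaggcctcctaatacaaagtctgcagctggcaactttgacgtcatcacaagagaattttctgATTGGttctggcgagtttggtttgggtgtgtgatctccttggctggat
H2-Eb1 (chr17:34305617-34305866, plus strand): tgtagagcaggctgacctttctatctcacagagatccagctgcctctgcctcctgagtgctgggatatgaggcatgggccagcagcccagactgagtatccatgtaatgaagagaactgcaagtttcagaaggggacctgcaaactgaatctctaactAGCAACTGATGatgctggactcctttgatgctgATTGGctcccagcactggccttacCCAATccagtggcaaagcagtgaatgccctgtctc
H2-DMb1 (chr17:34152941-34153190, plus strand): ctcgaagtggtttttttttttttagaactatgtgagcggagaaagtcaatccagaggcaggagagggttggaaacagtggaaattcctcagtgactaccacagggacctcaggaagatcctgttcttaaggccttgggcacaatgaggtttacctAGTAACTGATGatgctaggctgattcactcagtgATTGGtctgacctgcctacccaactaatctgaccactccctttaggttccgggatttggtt

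Such windows were at hand for 28 of the 35 genes and were absent for Cd74, Ciita, H2-Ab1, H2-Q1, H2-T24, Nlrc5 and Tap2. The Y box letters stood in 22 of the 28 windows, against 33.8% of all 32851 windows of this length. The X box core stood in 5, against 0.816% of all windows, and 4 of those 5 were among the 8 class II windows (H2-DMb1, H2-Eb1, H2-Eb2 and H2-Oa, beside Psmb10 of class I). The kappa B letters stood in 7 (H2-K1, H2-D1, H2-Q4, H2-Q6, H2-Q7, H2-Aa and H2-Oa), against 1.53% of all windows. These counts are not of separate sequences. The windows of Psmb9 and Tap1 overlap and hold the same Y box letters, and windows of related heavy chains, such as H2-K1, H2-D1 and H2-Q7 above, are much alike. The interferon element stood in 3 class I windows (B2m, H2-T22 and H2-T23), against 2.98%. The window of H2-Q10 held no exact match to these 4 motifs, although its letters can be read alongside those of H2-D1 and H2-Q7 above. A match of letters is a description of the window and does not show that a factor binds there. Only the letters given were searched, so a window without a match may still hold a site spelt otherwise.

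Across the whole series, the libraries held 17766207 to 18474191 estimated counts in the diet table and 17207214 to 21309950 in the hairpin table. Levels are given as CPM, the count of a gene relative to the total of its library after scaling by edgeR's TMM factors, each table on its own, and were not compared between tables. Tumours of both diets differed widely: 3532 of 16340 genes tested were lower and 3178 higher in HFD tumours (adjusted p under 0.05). Xist, the RNA that coats the silenced X chromosome of female cells, had 1 to 6 counts in HFD libraries and 1406 to 2579 in LFD libraries, so diet and the share of female RNA cannot be told apart. Hepatocyte markers summed to 1164 to 7594 CPM in HFD tumours and 13385 to 123394 CPM in LFD tumours, and 14 of the 15 fell in HFD tumours. In bulk tissue, fewer cells of a type and less RNA per cell cannot be told apart. The 5 carcinoma epithelium markers summed to 187 to 359 CPM in HFD tumours and 54.2 to 543 CPM in LFD tumours. HFD replicates 1 and 2, and replicates 3 and 4, lay closest together, the log2 difference between them having an SD over genes of 0.26 and 0.24, against 0.35 to 0.52 for the other pairs of HFD libraries. The labels do not say whether the libraries of these pairs came from separate tumours, and if they did not, the HFD group holds fewer than 5 tumours.

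By level per kilobase of exon, B2m was the most abundant of the 35 genes, with 1650 ± 189 CPM per kilobase in HFD tumours and 2552 ± 590 in LFD tumours (SD, n = 5 each). Next stood H2-D1 with 447 ± 57.1 in HFD and 547 ± 140 in LFD tumours, and H2-K1 with 314 ± 51.0 and 552 ± 136 in the same order. Cd74 followed with 199 ± 161 CPM per kilobase in HFD and 513 ± 337 in LFD tumours, a spread so wide that in LFD tumours it could not be set apart from H2-K1 or H2-D1. The class II chains lay lower, from H2-Ab1 with 51.1 ± 40.5 in HFD and 146 ± 104 in LFD tumours to H2-Aa with 36.6 ± 31.9 and 110 ± 83.5. The transactivators were scarce: Nlrc5 stood at 5.36 ± 0.899 CPM per kilobase in HFD and 9.83 ± 2.03 in LFD tumours, and Ciita at 0.858 ± 0.548 and 2.76 ± 1.81. H2-Q10 reached 220 ± 180 CPM per kilobase in LFD tumours but only 6.74 ± 5.43 in HFD tumours. Lowest of all were H2-M2, H2-Q2 and H2-Eb2, each under 1 CPM per kilobase in both diets.

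In HFD tumours, MHC and antigen processing RNA was lower than in LFD tumours in both pathways. Of the 35 genes, 32 could be tested, 20 fell and 0 rose, where 21.6% of all genes tested fell and 19.4% rose. All 32 fold changes lay below 0, as did 50.2% of those of all genes tested, with a median log2 fold change of -0.81 against -0.0018 over all genes tested. Every HFD library lay below every LFD library for 10 of the 32, against 14.8% of all genes tested. H2-M2, with 1 to 4 counts in HFD and 3 to 12 in LFD libraries, H2-Q2, with 0 to 2 and 1 to 12, and H2-Eb2, with 0 to 6 and 3 to 30, were too low to test. H2-Q1 passed the filter on low counts through its LFD libraries, since only 2 of 5 HFD libraries reached the cutoff of 0.549 CPM, so its call is not independent of that filter. DESeq2 called 26 of the 32 lower, against 24.7% of all genes in that test. The count of 20 was 12 with the closest HFD libraries summed (H2-Eb2, too low for the main test, among them), where 12.9% of all genes tested fell. It was 9 with library totals alone as the scale, where 13.6% of all genes tested fell and Tapbp and H2-M5 turned above 0. The calls of B2m, Ciita, H2-DMb1, H2-Q4, H2-T22, H2-T23, Psmb8, Psmb9 and Psmb10 were lost under both, at adjusted p of 0.0514 to 0.485, and those of H2-K1 (0.0523) and H2-T24 (0.181) with library totals alone.

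**Figure D1:**
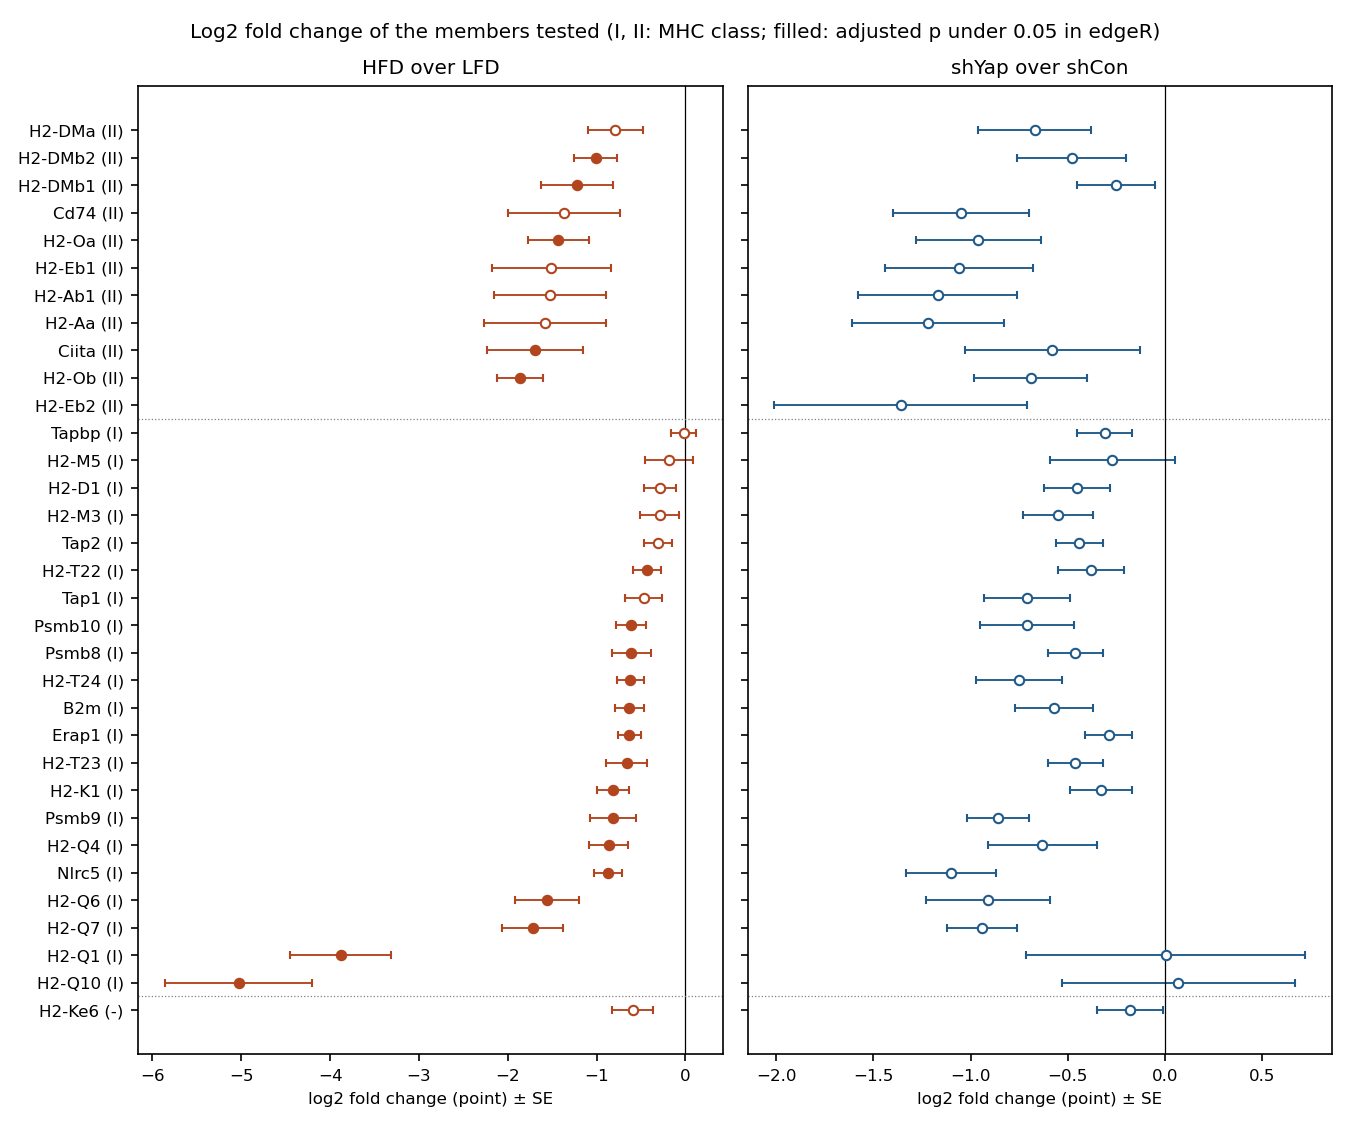
Log2 fold change of each gene tested, HFD over LFD tumours on the left and shYap over shCon tumours on the right (the axes differ in range), as point ± SE from edgeR, with filled points for an adjusted p under 0.05. All 32 points on the left lie below 0 and 20 are filled, whereas on the right 31 of 33 lie below 0 and 0 are filled.

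Among the class I heavy chains, 9 of 12 tested fell in HFD tumours, against 21.6% of all genes tested. The classical chains H2-K1 and H2-D1 parted. H2-K1 (chr17:33996017-34000347, minus strand) had 800, 808, 1030, 1133 and 847 CPM in HFD tumours, against 2117, 1306, 1985, 1282 and 1416 CPM in LFD tumours. Every HFD library was below every LFD library, and H2-K1 fell by 0.81 ± 0.18 on the log2 scale (SE; adjusted p = 0.0052). H2-D1 (chr17:35262730-35267499, plus strand) had 1013, 1014, 1292, 1319 and 1121 CPM in HFD tumours, against 1727, 1354, 1819, 1204 and 950 CPM in LFD tumours. Here the groups overlapped, LFD replicate 5 being the lowest of all 10 libraries, and the log2 fold change of -0.29 ± 0.18 did not pass the test (adjusted p = 0.21). Without LFD replicate 5 the log2 fold change of H2-D1 was -0.39 (adjusted p = 0.0539). The ratio of H2-K1 to H2-D1, looked at after these values were seen, was 0.756 to 0.859 in HFD tumours and 0.965 to 1.49 in LFD tumours, with no overlap. Among LFD libraries this ratio ranked in the same order as the summed hepatocyte markers, and among HFD libraries it did not. The part of hepatocyte RNA in the ratio was not tested. Reads of near-identical class I genes may be shared out between them by the counting, so values of single H2-K, H2-D, H2-Q and H2-T genes are uncertain to that extent.

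The largest fall of all 35 genes was that of H2-Q10, a class I chain known to be secreted by the liver (chr17:35470089-35474563, plus strand). H2-Q10 had 53.3, 56.8, 9.62, 12.7 and 14.1 CPM in HFD tumours, against 1489, 265, 588, 376 and 2057 CPM in LFD tumours. The lowest LFD library was far above the highest HFD library, and the log2 fold change was -5.03 ± 0.83 (adjusted p = 0.0017). The summed hepatocyte markers ranked the 10 libraries in the same order as H2-Q10 did. Per 1000 CPM of the 15 hepatocyte markers, a ratio chosen after the values were seen, H2-Q10 had 7.48 to 9.44 CPM in HFD tumours and 16.7 to 20.8 CPM in LFD tumours. The part of hepatocyte RNA in the fall was not tested. H2-Q1, with 2 to 19 counts in HFD and 74 to 133 in LFD libraries, had a log2 fold change of -3.88 ± 0.57 (adjusted p = 0.000876).

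**Figure D2:**
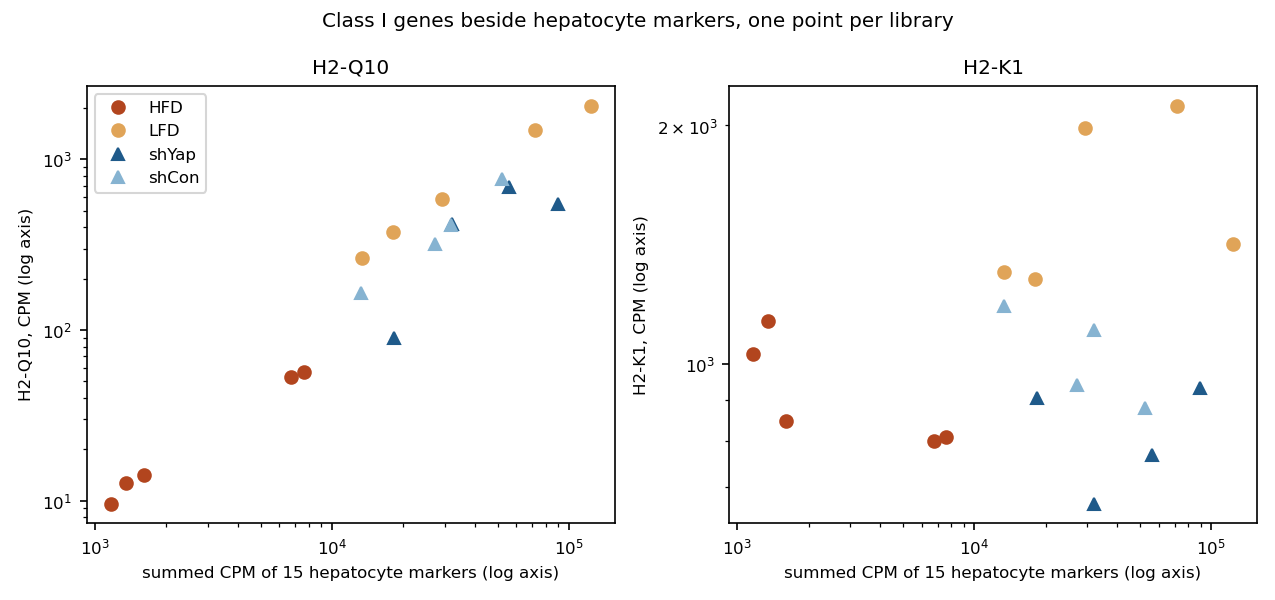
CPM of H2-Q10 (left) and H2-K1 (right) on log axes against the summed CPM of 15 hepatocyte markers, 1 point per library, circles for the diet table and triangles for the hairpin table. In the diet table H2-Q10 is lowest, at 9.62 CPM, in HFD replicate 3, which has the lowest marker sum, and highest, at 2057 CPM, in LFD replicate 5, which has the highest, while the HFD libraries lie below the LFD libraries in H2-K1 at 800 to 1133 CPM with no such slope among themselves.

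H2-Q7 and H2-Q6, the near-identical genes of the nonclassical Qa-2 antigen, fell further than the classical chains, a difference that was not tested. H2-Q7 (chr17:35439155-35443773, plus strand) had 19.2, 26.4, 39.7, 49.1 and 21.5 CPM in HFD tumours, against 149, 53.5, 139, 84.4 and 86.7 CPM in LFD tumours. The groups did not overlap, and H2-Q7 fell by 1.72 ± 0.34 on the log2 scale (adjusted p = 0.0038). H2-Q6 averaged 17.3 ± 8.37 CPM in HFD tumours and 51.1 ± 19.5 CPM in LFD tumours (SD, n = 5 each), again with no overlap (log2 fold change -1.56 ± 0.36, adjusted p = 0.00763). Summed, as suits genes whose reads may be split, both had 30.3 to 77.5 CPM in HFD tumours and 83.7 to 225 CPM in LFD tumours.

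Of the other nonclassical chains, H2-T23 encodes Qa-1, a ligand of the NKG2A receptor of natural killer cells. H2-T23 had 87.6, 98.1, 135, 123 and 95.1 CPM in HFD tumours, against 237, 105, 196, 114 and 199 CPM in LFD tumours. The groups overlapped and the call was narrow, with a log2 fold change of -0.66 ± 0.23 (adjusted p = 0.0446). It was lost, at adjusted p of 0.0603 to 0.107, without HFD replicate 1, 2, 4 or 5 or LFD replicate 1, 3 or 5. H2-T22, a ligand of some gamma delta T cell receptors, averaged 139 ± 11.1 CPM in HFD tumours and 187 ± 47.5 CPM in LFD tumours (adjusted p = 0.0498), and its call was lost, at 0.0641 to 0.121, without any 1 of the HFD replicates or without LFD replicate 1 or 3. H2-Q4 averaged 137 ± 20.7 CPM in HFD and 247 ± 80.3 CPM in LFD tumours (adjusted p = 0.0120, but 0.0608 with the closest HFD libraries summed), and H2-T24 5.76 ± 0.636 and 8.85 ± 1.66 CPM (adjusted p = 0.0094). H2-M3, which presents formylated peptides of bacteria, had 9.02, 9.85, 11.0, 11.3 and 9.14 CPM in HFD tumours, against 15.1, 11.0, 15.5, 13.2 and 6.35 CPM in LFD tumours. LFD replicate 5 was again the lowest library, and the log2 fold change of -0.29 ± 0.22 did not pass (adjusted p = 0.312), though without that library it did (adjusted p = 0.0229). H2-M5 had a log2 fold change of -0.18 ± 0.27 at about 1 CPM and changed sign under other settings.

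Of the class I machinery, 6 of 9 genes fell in HFD tumours, against 21.6% of all genes tested. B2m (chr2:122147686-122153083, plus strand) had 1236, 1352, 1479, 1665 and 1363 CPM in HFD tumours, against 2839, 1545, 2312, 1846 and 2429 CPM in LFD tumours. All HFD libraries but replicate 4 were below the lowest LFD library, and B2m fell by 0.63 ± 0.16 on the log2 scale (adjusted p = 0.0117, but 0.0626 with the closest HFD libraries summed, 0.0547 with the replicate number as a block and 0.101 with library totals alone). Nlrc5 (chr8:94434356-94527272, plus strand) had 38.6, 42.1, 48.7, 57.5 and 40.9 CPM in HFD tumours, against 95.9, 71.7, 105, 82.9 and 62.3 CPM in LFD tumours. Its groups did not overlap, and its fall of 0.87 ± 0.16 on the log2 scale (adjusted p = 0.00231) was the largest of the machinery. Erap1 averaged 88.5 ± 11.4 CPM in HFD tumours and 137 ± 21.7 CPM in LFD tumours, also with no overlap (log2 fold change -0.63 ± 0.13, adjusted p = 0.00376).

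The interferon-inducible proteasome subunits fell, with LFD replicate 5 within or below the range of the HFD tumours. Psmb9 had 27.4, 33.3, 41.8, 41.9 and 37.8 CPM in HFD tumours, against 91.5, 43.2, 91.3, 55.0 and 38.5 CPM in LFD tumours. Psmb8 had 77.6, 78.0, 101, 111 and 87.6 CPM in HFD tumours, against 164, 126, 188, 139 and 76.1 CPM in LFD tumours. The other 4 LFD libraries were above all HFD libraries in both genes. The log2 fold changes were -0.81 ± 0.26 for Psmb9 (adjusted p = 0.0301) and -0.61 ± 0.22 for Psmb8 (adjusted p = 0.0441). The call of Psmb9 was lost, at 0.0572 to 0.0732, without HFD replicate 1, 2 or 5 or LFD replicate 1 or 3, and that of Psmb8, at 0.0508 to 0.102, without any 1 library other than HFD replicate 4 and LFD replicate 5. Psmb10 averaged 52.8 ± 6.21 CPM in HFD and 80.6 ± 20.9 CPM in LFD tumours (log2 fold change -0.61 ± 0.17, adjusted p = 0.0169).

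The peptide pump and tapasin did not pass the test. Tap1 had 98.1, 106, 123, 120 and 115 CPM in HFD tumours, against 195, 122, 223, 143 and 96.6 CPM in LFD tumours. Its log2 fold change was -0.47 ± 0.21 (adjusted p = 0.0923) and that of Tap2 -0.31 ± 0.16 (adjusted p = 0.142), but without LFD replicate 5 both passed (adjusted p = 0.0201 and 0.0311). Tapbp averaged 368 ± 37.6 CPM in HFD tumours and 373 ± 80.6 CPM in LFD tumours, a log2 fold change of -0.02 ± 0.14 whose sign changed between settings. Psmb9 (chr17:34181987-34187764, minus strand) and Tap1 (chr17:34187553-34197225, plus strand) overlap at their starts, and without stated strand information their shared reads cannot be told apart. H2-Ke6 averaged 25.2 ± 3.13 CPM in HFD and 38.0 ± 14.1 CPM in LFD tumours and did not pass (adjusted p = 0.0604), although it did without LFD replicate 2 (adjusted p = 0.0336) or LFD replicate 4 (adjusted p = 0.0256).

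**Figure D3:**
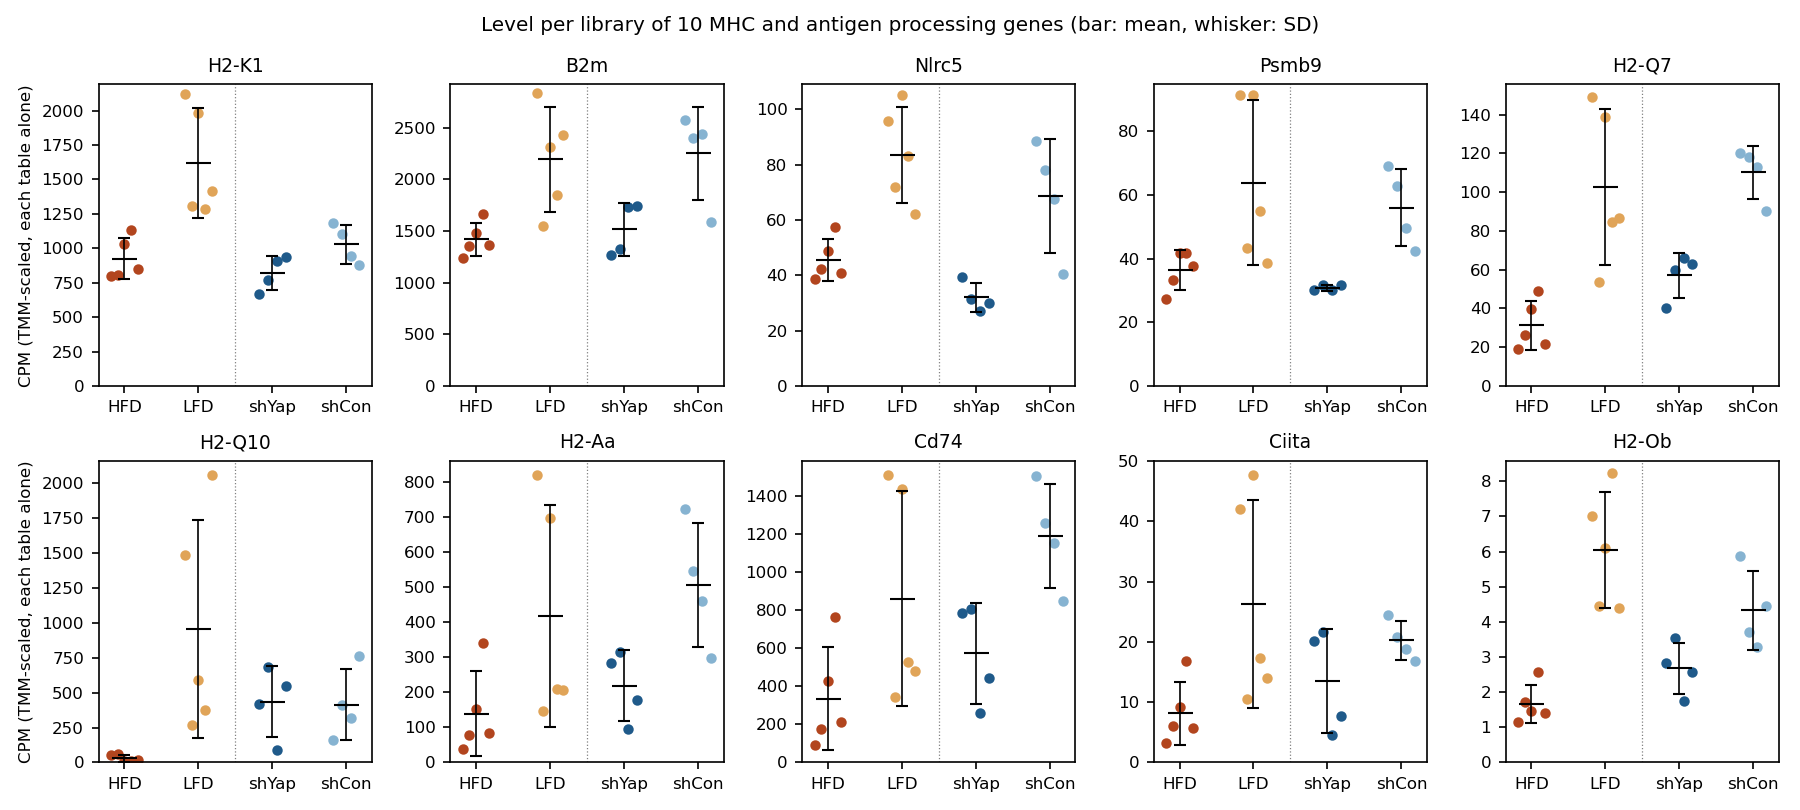
CPM of 10 of the genes in each library, with the mean as a bar and the SD as whiskers, for HFD (n = 5), LFD (n = 5), shYap (n = 4) and shCon (n = 4) tumours, each table scaled alone. HFD points lie wholly below LFD points for H2-K1, Nlrc5, H2-Q7, H2-Q10 and H2-Ob, and shYap points wholly below shCon points for Nlrc5, Psmb9, H2-Q7 and Cd74.

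Of the class II genes, 5 of 10 tested fell in HFD tumours, against 21.6% of all genes tested. Their median log2 fold change was -1.47, against -0.63 for class I, a difference that was not tested. H2-Aa, the alpha chain of I-A (chr17:34282744-34287823, minus strand), had 37.5, 77.9, 154, 342 and 84.3 CPM in HFD tumours, against 821, 147, 699, 210 and 208 CPM in LFD tumours. H2-Ab1, its beta chain (chr17:34257689-34269419, plus strand), had 40.8, 73.6, 159, 300 and 82.9 CPM in HFD tumours, against 715, 139, 613, 212 and 202 CPM in LFD tumours. H2-Eb1, the beta chain of I-E, had 25.3, 49.3, 107, 215 and 58.0 CPM in HFD tumours, against 502, 93.3, 436, 131 and 135 CPM in LFD tumours. These chains ranked the libraries almost alike: HFD replicate 4 was the highest HFD library in each and lay above LFD replicates 2, 4 and 5, while LFD replicates 1 and 3 stood above all others. Their log2 fold changes of -1.58 ± 0.69, -1.52 ± 0.63 and -1.51 ± 0.67 did not pass the test (adjusted p = 0.0907 for H2-Aa, 0.0811 for H2-Ab1 and 0.0959 for H2-Eb1).

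Cd74, the invariant chain (chr18:60803848-60812652, plus strand), had 90.9, 175, 428, 764 and 212 CPM in HFD tumours, against 1512, 344, 1439, 528 and 481 CPM in LFD tumours. It followed the same order of libraries and did not pass either (log2 fold change -1.37 ± 0.63, adjusted p = 0.110). Ciita (chr16:10480059-10528418, plus strand) had 3.29, 6.06, 9.12, 16.8 and 5.67 CPM in HFD tumours, against 42.0, 10.5, 47.8, 17.4 and 14.0 CPM in LFD tumours. All HFD libraries but replicate 4 were below the lowest LFD library, and Ciita fell by 1.69 ± 0.54 on the log2 scale (adjusted p = 0.0323). The call was lost, at 0.0597 to 0.0776, without HFD replicate 1, 2, 3 or 5 or LFD replicate 1 or 3.

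The genes of H2-O and H2-DMb2 gave the smallest adjusted p of class II, at low levels. H2-Oa, the alpha chain of H2-O, had 0.598, 1.36, 1.06, 1.91 and 1.52 CPM in HFD tumours, against 5.49, 2.18, 4.14, 3.09 and 2.60 CPM in LFD tumours. H2-Ob, its beta chain, averaged 1.66 ± 0.545 CPM in HFD tumours and 6.04 ± 1.65 CPM in LFD tumours. Neither overlapped, and the log2 fold changes were -1.43 ± 0.34 for H2-Oa (adjusted p = 0.00768) and -1.86 ± 0.26 for H2-Ob (adjusted p = 0.000728). H2-DMa, the alpha chain of H2-DM, had 23.2, 27.7, 42.9, 59.4 and 27.4 CPM in HFD tumours, against 77.4, 51.7, 88.5, 59.9 and 34.9 CPM in LFD tumours, and did not pass (log2 fold change -0.79 ± 0.31, adjusted p = 0.0659). Of its beta chains, H2-DMb2 averaged 4.06 ± 1.24 CPM in HFD and 8.18 ± 1.86 CPM in LFD tumours with no overlap (adjusted p = 0.00746), and H2-DMb1 27.3 ± 14.3 and 63.3 ± 29.9 CPM (adjusted p = 0.0379). The call of H2-DMb1 was lost, at 0.0639 to 0.0895, without the same 6 libraries as that of Ciita.

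How many class II genes passed varied with the library left out, from 3 to 11. Without HFD replicate 4, 11 passed, where 18.7% of all genes tested fell. The adjusted p was then 0.0271 for H2-Aa, 0.0282 for H2-Ab1, 0.0320 for H2-Eb1 and 0.0358 for Cd74. H2-Eb2, too low for the main test, was among the 11. It also passed without HFD replicate 1, 2, 3 or 5 or LFD replicate 5. Without LFD replicate 1, or without LFD replicate 3, 3 passed, where 17.5% and 19.0% of all genes tested fell. H2-DMa passed without HFD replicate 4 (adjusted p = 0.0205) or LFD replicate 5 (adjusted p = 0.0321). DESeq2 called 10 of the class II genes lower on all libraries, against 24.7% of all genes in that test.

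**Figure D4:**
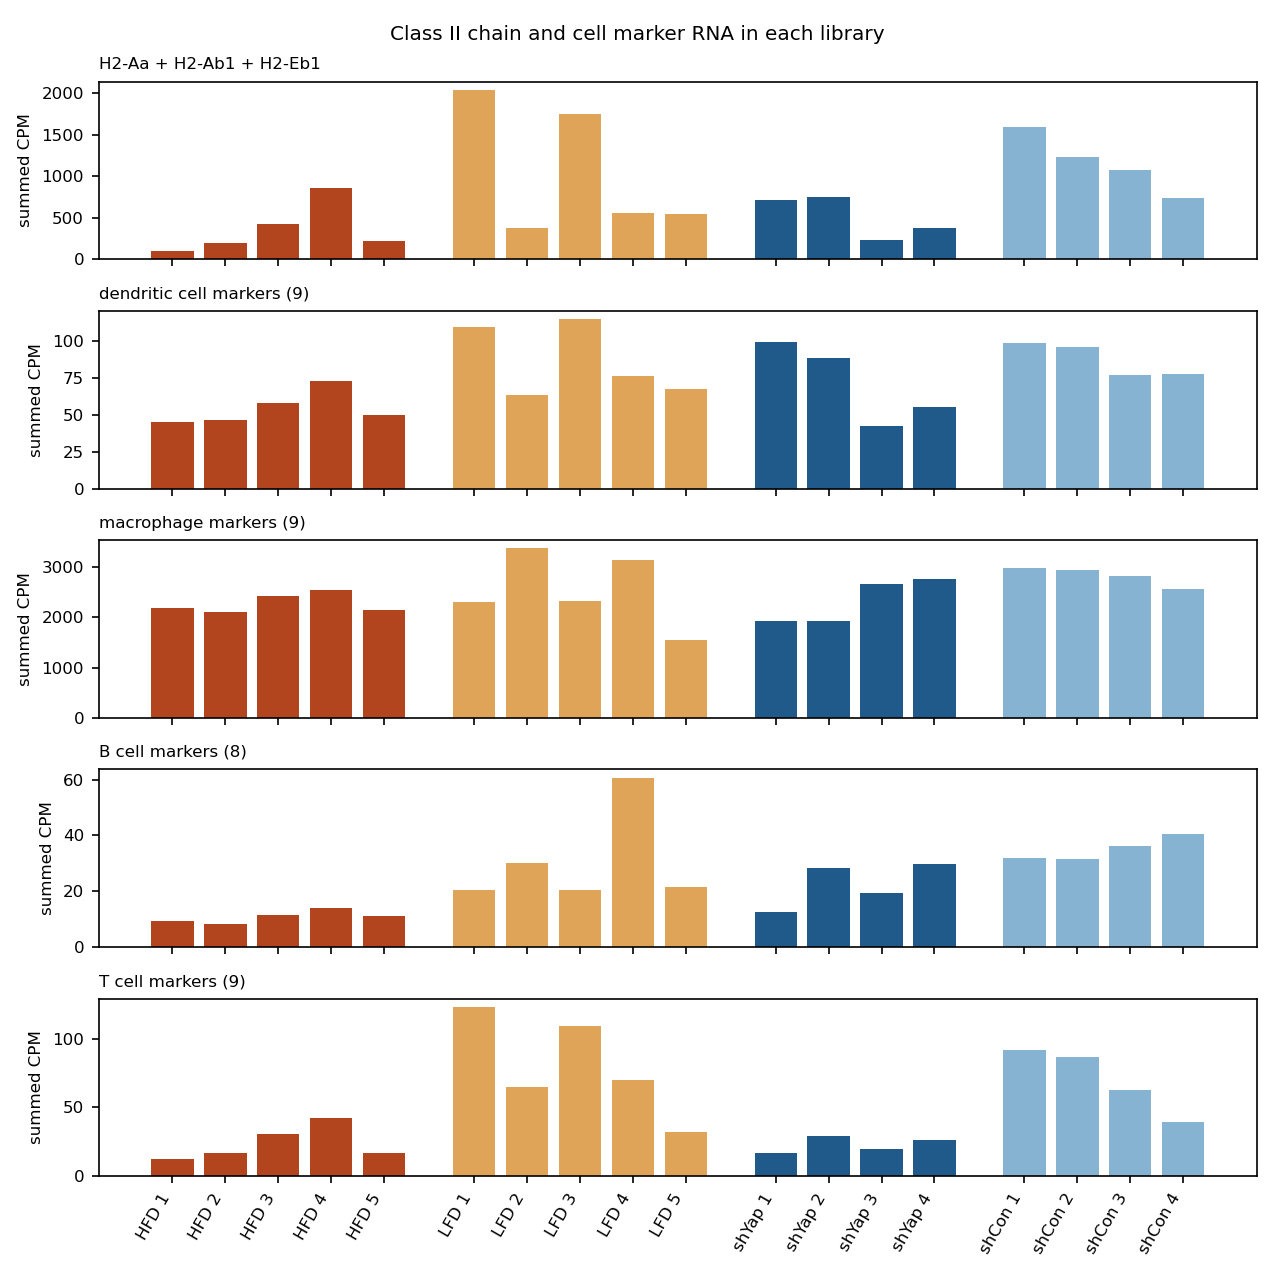
Summed CPM in each library of the class II chains H2-Aa, H2-Ab1 and H2-Eb1 (top) and of the marker lists of dendritic cells, macrophages, B cells and T cells (number of genes in brackets), with bars from 0 and each table scaled alone. In the diet table the class II chains are highest in LFD replicates 1 and 3 (2038 and 1748 CPM), which are also the highest in dendritic cell and T cell markers but not in macrophage or B cell markers.

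Markers of several kinds of immune cell differed between the diets as well. Of all genes tested, 21.6% fell and 19.4% rose. Of the 4 pan-leukocyte markers 2 fell, with sums of 382 to 477 CPM in HFD and 373 to 761 CPM in LFD tumours. Dendritic cell markers summed to 45.2 to 73.3 CPM in HFD tumours and 63.2 to 115 CPM in LFD tumours, and 8 of 9 fell. Of the B cell markers, 5 of 5 tested fell (8.13 to 13.9 CPM in HFD and 20.5 to 60.7 CPM in LFD tumours), and of the T cell markers 9 of 9 (12.5 to 42.6 CPM and 32.0 to 123 CPM). Cytotoxic lymphocyte markers fell in 6 of 6 (6.87 to 18.4 CPM in HFD and 17.7 to 54.4 CPM in LFD tumours) and Kupffer cell markers in 3 of 6 (16.4 to 80.2 CPM and 83.4 to 233 CPM). Of the 9 macrophage markers 0 passed in edgeR or in DESeq2 and 0 had an unadjusted p under 0.05, with sums of 2113 to 2548 CPM in HFD and 1541 to 3370 CPM in LFD tumours. None of these lists had a gene at 0 in all libraries. Per CPM of dendritic cell markers, a ratio chosen after the values were seen, H2-Aa, H2-Ab1 and H2-Eb1 had 2.29 to 11.7 CPM in HFD and 5.99 to 18.5 CPM in LFD tumours, which overlapped, as did the same chains per 1000 CPM of macrophage markers (47.3 to 337 and 112 to 883 CPM) and per CPM of pan-leukocyte markers (0.268 to 1.80 and 0.609 to 3.40 CPM). The part of these cells in the class I and class II differences was not tested.

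Other genes of the pathway were taken from lists rather than for how they moved, and 12 of the 36 tested fell and 3 rose, where 21.6% of all genes tested fell and 19.4% rose. Of 7 class I loading partners, 4 fell and 0 rose. Psme1, which with Psme2 forms a proteasome activator, averaged 89.1 ± 9.26 CPM in HFD and 133 ± 17.1 CPM in LFD tumours (log2 fold change -0.58 ± 0.11, adjusted p = 0.00238). The chaperone Canx (calnexin) fell by 0.22 ± 0.07 and Psme2 by 0.40 ± 0.12 on the log2 scale (adjusted p = 0.0242 and 0.0248). Of 5 constitutive proteasome genes, 3 fell, namely the assembly factor Pomp (log2 fold change -0.53 ± 0.07, adjusted p = 0.000582) and the catalytic subunits Psmb6 (-0.43 ± 0.08, adjusted p = 0.00296) and Psmb5 (-0.46 ± 0.09, adjusted p = 0.00311), the counterparts of Psmb9 and Psmb8.

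In the next lists the shares that fell lay nearer to that of all genes tested, of which 21.6% fell and 19.4% rose. Of 8 genes of class II processing in endosomes, 1 fell and 1 rose. The ubiquitin ligase March1, which removes class II molecules from the surface, had a log2 fold change of -0.73 ± 0.18 (adjusted p = 0.00891). The protease cathepsin D (Ctsd) had one of 0.39 ± 0.08 (adjusted p = 0.00438), and Ctsl 0.31 ± 0.15 without passing (adjusted p = 0.136). Of 9 factors of MHC promoters, 3 fell and 2 rose. Irf2 fell by 0.65 ± 0.11 and Irf8 by 0.66 ± 0.16 on the log2 scale (adjusted p = 0.00187 and 0.00825), and the subunits of the Y box factor were split, with log2 fold changes of 0.39 ± 0.12 for Nfya (adjusted p = 0.0246), 0.21 ± 0.07 for Nfyc (adjusted p = 0.0362) and -0.55 ± 0.17 for Nfyb (adjusted p = 0.0280). Of 7 interferon gamma signalling genes tested, 1 fell: Irf1 averaged 79.6 ± 12.2 CPM in HFD and 120 ± 28.7 CPM in LFD tumours (adjusted p = 0.0184). The kinase Jak1 had a log2 fold change of 0.15 ± 0.07 and did not pass (adjusted p = 0.112). Ifng itself was too low to test.

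In the hairpin table Yap1, the target of the hairpin, was examined first. Yap1 had 71.6, 80.0, 81.4 and 70.5 CPM in libraries labelled shYap, against 78.1, 82.4, 73.8 and 77.4 CPM in libraries labelled shCon. The groups overlapped, with a log2 fold change of -0.04 ± 0.11 (adjusted p = 0.937), so the libraries are called by their labels and no direction below is tied to the level of Yap1. The tumour RNA is that of all cells of the tissue, and Yap1 of cells without a hairpin is part of these values.

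In libraries labelled shYap the MHC and antigen processing genes were mostly at lower levels, but 0 of the 33 genes tested passed in edgeR, as did 0 (0%) of all 16571 genes. At an unadjusted p under 0.05, 23 of the 33 were lower and 0 higher, where 6.13% of all genes tested were lower and 4.76% higher. Of the 33 fold changes 31 lay below 0, against 46.1% over all genes tested, with a median log2 fold change of -0.58 against 0.03 over all genes tested. Every shYap library was below every shCon library for 13 of the 33, against 3.96% of all genes tested. DESeq2 called 4 lower (H2-Q7, Psmb9, Nlrc5 and Tap2), against 1.76% of all genes in that test. H2-M2, with 1 to 12 counts in shYap and 4 to 8 in shCon libraries, and H2-Q2, with 3 to 13 and 2 to 4, were too low to test. H2-Eb2 passed the filter mainly through its shCon libraries, since 1 of 4 shYap libraries reached 0.491 CPM against 3 of 4 shCon libraries, while H2-Q1 reached it in 3 of 4 shYap and 4 of 4 shCon libraries.

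All 9 genes of the class I machinery had an unadjusted p under 0.05 and a lower level in shYap tumours, against 6.13% of all genes tested. Of the 9, 5 did not overlap, against 3.96% of all genes tested. Nlrc5 had 39.5, 31.4, 27.1 and 30.0 CPM in shYap tumours, against 88.6, 77.9, 67.5 and 40.5 CPM in shCon tumours. Its log2 fold change was -1.10 ± 0.23 (edgeR adjusted p = 0.158, DESeq2 adjusted p = 0.00389), with shCon replicate 4 just above the shYap libraries. Psmb9 had 30.1, 31.7, 30.1 and 31.6 CPM in shYap tumours, against 69.1, 62.7, 49.6 and 42.5 CPM in shCon tumours. The shYap libraries lay within a narrow range, and the log2 fold change was -0.86 ± 0.16 (edgeR adjusted p = 0.153, DESeq2 adjusted p = 0.00182). Without shCon replicate 4 both passed in edgeR (adjusted p = 0.0352 for Nlrc5 and 0.0408 for Psmb9), as did 77 lower and 17 higher genes of all those tested.

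Psmb8 had 91.0, 103, 109 and 117 CPM in shYap tumours, against 171, 152, 133 and 119 CPM in shCon tumours, which did not overlap (log2 fold change -0.46 ± 0.14, edgeR adjusted p = 0.301). Tap1 had 92.0, 87.2, 145 and 90.8 CPM in shYap tumours, against 210, 195, 151 and 123 CPM in shCon tumours. Here shYap replicate 3 alone lay inside the range of shCon tumours (log2 fold change -0.71 ± 0.22, adjusted p = 0.293). Tap2 averaged 67.7 ± 5.79 CPM in shYap and 91.8 ± 6.82 CPM in shCon tumours with no overlap (SD, n = 4 each; edgeR adjusted p = 0.208, DESeq2 adjusted p = 0.0398). B2m had 1264, 1327, 1730 and 1747 CPM in shYap tumours, against 2579, 2397, 2439 and 1591 CPM in shCon tumours. Its overlap came from shCon replicate 4 (log2 fold change -0.57 ± 0.20, adjusted p = 0.334). Tapbp, Psmb10 and Erap1 had log2 fold changes of -0.31 ± 0.14, -0.71 ± 0.24 and -0.29 ± 0.12, none past the threshold in either tool.

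Of the 12 heavy chains tested, 7 had an unadjusted p under 0.05, all lower, against 6.13% of all genes tested. H2-Q7 had 40.1, 59.9, 65.8 and 62.9 CPM in shYap tumours, against 120, 118, 113 and 90.1 CPM in shCon tumours. The groups lay well apart, with the smallest unadjusted p of the 35 genes (log2 fold change -0.94 ± 0.18, edgeR adjusted p = 0.153, DESeq2 adjusted p = 0.00113). H2-K1 had 667, 769, 906 and 933 CPM in shYap tumours, against 1184, 1105, 941 and 880 CPM in shCon tumours. H2-D1 had 916, 932, 1302 and 996 CPM in shYap tumours, against 1541, 1575, 1418 and 1135 CPM in shCon tumours. Both overlapped, with log2 fold changes of -0.33 ± 0.16 for H2-K1 (adjusted p = 0.522) and -0.45 ± 0.17 for H2-D1 (adjusted p = 0.379), and the ratio of H2-K1 to H2-D1 overlapped too (0.696 to 0.937 in shYap and 0.663 to 0.775 in shCon tumours). The ratio followed the order of the summed hepatocyte markers among shYap libraries but not among shCon libraries.

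H2-T23 had 85.3, 98.7, 114 and 97.6 CPM in shYap tumours, against 136, 159, 131 and 120 CPM in shCon tumours, without overlap (log2 fold change -0.46 ± 0.14, adjusted p = 0.262). H2-M3 had 8.87, 7.52, 8.85 and 6.31 CPM in shYap tumours, against 13.3, 11.5, 11.2 and 10.2 CPM in shCon tumours, also without overlap (log2 fold change -0.55 ± 0.18, adjusted p = 0.302). H2-T24 (log2 fold change -0.75 ± 0.22) did not overlap either, whereas H2-Q4, H2-Q6 and H2-T22 did, at -0.63 ± 0.28, -0.91 ± 0.32 and -0.38 ± 0.17. The liver chain H2-Q10 had 418, 686, 90.0 and 548 CPM in shYap tumours, against 164, 410, 319 and 762 CPM in shCon tumours. Its log2 fold change of 0.07 ± 0.60 changed sign between settings, and hepatocyte markers overlapped as well, at 18340 to 89604 CPM in shYap and 13304 to 52251 CPM in shCon tumours. H2-Q1 stood at 2.67 ± 1.99 CPM in shYap and 2.67 ± 1.94 CPM in shCon tumours, H2-M5 at 1.19 ± 0.239 and 1.44 ± 0.436 CPM, and H2-Ke6 at 16.8 ± 2.65 and 19.1 ± 2.92 CPM.

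All 11 class II genes had fold changes below 0 in shYap tumours, and the median log2 fold change was -0.96. Of the 11, 7 had an unadjusted p under 0.05, against 6.13% of all genes tested that were lower. H2-Aa had 285, 316, 95.0 and 179 CPM in shYap tumours, against 724, 547, 461 and 298 CPM in shCon tumours. H2-Ab1 had 281, 269, 79.9 and 118 CPM in shYap tumours, against 565, 436, 388 and 291 CPM in shCon tumours. Cd74 had 783, 806, 261 and 446 CPM in shYap tumours, against 1505, 1257, 1152 and 846 CPM in shCon tumours. Replicate 3 was the lowest shYap library and replicate 4 the lowest shCon library in each, and H2-Ab1 and Cd74 did not overlap. The log2 fold changes were -1.22 ± 0.39 for H2-Aa, -1.17 ± 0.41 for H2-Ab1 and -1.05 ± 0.35 for Cd74, with edgeR adjusted p of 0.317, 0.348 and 0.323.

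H2-Eb1 had 150, 166, 51.2 and 79.6 CPM in shYap tumours, against 306, 253, 228 and 146 CPM in shCon tumours (log2 fold change -1.06 ± 0.38, adjusted p = 0.357). Ciita had 20.2, 21.7, 4.54 and 7.72 CPM in shYap tumours, against 24.5, 20.8, 18.9 and 16.9 CPM in shCon tumours. Ciita thus split the shYap libraries, replicates 1 and 2 lying within the range of shCon tumours and replicates 3 and 4 below it (log2 fold change -0.58 ± 0.45, adjusted p = 0.713). H2-DMa had 66.3, 58.5, 25.7 and 39.8 CPM in shYap tumours, against 102, 74.7, 65.2 and 60.9 CPM in shCon tumours (log2 fold change -0.67 ± 0.29, adjusted p = 0.452). H2-Oa had 2.53, 2.58, 1.59 and 1.20 CPM in shYap tumours, against 5.31, 3.58, 3.38 and 3.20 CPM in shCon tumours. It did not overlap, with a log2 fold change of -0.96 ± 0.32 (adjusted p = 0.319). The other class II genes were H2-Ob (-0.69 ± 0.29), H2-DMb2 (-0.48 ± 0.28), H2-DMb1 (-0.25 ± 0.20) and H2-Eb2 (-1.36 ± 0.65), none past the threshold in edgeR.

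Dendritic cell markers overlapped between the hairpin groups, at 42.4 to 99.7 CPM in shYap and 77.3 to 98.9 CPM in shCon tumours. Of the 9, 5 were lower at an unadjusted p under 0.05, as were 6.13% of all genes tested. Per CPM of these markers, a ratio chosen after the values were seen, the class II chains had 5.34 to 8.47 CPM in shYap and 9.47 to 16.1 CPM in shCon tumours, without overlap. The same chains did overlap per 1000 CPM of macrophage markers, at 84.9 to 391 CPM in shYap and 287 to 535 CPM in shCon tumours, and per CPM of pan-leukocyte markers, at 0.974 ± 0.525 CPM in shYap and 1.65 ± 0.486 CPM in shCon tumours (SD, n = 4 each). Pan-leukocyte markers summed to 502 to 589 CPM in shYap and 692 to 719 CPM in shCon tumours, without overlap, and 4 of 4 had an unadjusted p under 0.05, 0 past the adjusted threshold in edgeR or DESeq2. T cell markers summed to 16.8 to 29.1 CPM in shYap and 39.7 to 91.8 CPM in shCon tumours, 9 of 9 with an unadjusted p under 0.05. Of these, 0 passed the adjusted threshold in edgeR and 7 in DESeq2, which called 1.76% of all genes lower. Cytotoxic lymphocyte markers summed to 9.33 to 18.5 CPM in shYap and 17.5 to 57.8 CPM in shCon tumours, B cell markers to 12.7 to 29.6 and 31.4 to 40.6 CPM, and macrophage markers to 1918 to 2760 and 2565 to 2981 CPM (3 of 9 lower at an unadjusted p under 0.05). The part of these cells in the values of the MHC genes was not tested.

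Of the 36 other genes of the pathway tested in the hairpin table, 0 passed in edgeR. DESeq2 called 2 lower (Socs1, an inhibitor of the Jak kinases, among them), against 1.76% of all genes in that test. At an unadjusted p under 0.05, 9 were lower and 1 higher, where 6.13% of all genes tested were lower and 4.76% higher. Among genes of interferon gamma signalling, 3 of 7 tested had an unadjusted p under 0.05, all lower. Irf1 averaged 83.4 ± 16.2 CPM in shYap and 109 ± 14.4 CPM in shCon tumours (adjusted p = 0.458). Of the promoter factors, Irf8 averaged 52.1 ± 4.08 CPM in shYap and 71.8 ± 13.4 CPM in shCon tumours (adjusted p = 0.324), and Irf2 61.8 ± 10.5 and 61.4 ± 1.46 CPM. The loading partner Psme1 averaged 60.2 ± 5.58 CPM in shYap and 80.2 ± 11.3 CPM in shCon tumours (adjusted p = 0.323), while the proteasome subunits Psmb5 and Psmb6 each had a log2 fold change of -0.04 in shYap over shCon tumours.

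Set side by side, the fold changes of the diet and hairpin comparisons were unlike for H2-Q10 and closer for some others, such as B2m, Nlrc5 and Psmb9. The difference between the comparisons was not tested, and none of these genes passed in edgeR in the hairpin comparison. H2-Q10 had a log2 fold change of -5.03 ± 0.83 in HFD over LFD and 0.07 ± 0.60 in shYap over shCon tumours. B2m had -0.63 ± 0.16 and -0.57 ± 0.20, Nlrc5 -0.87 ± 0.16 and -1.10 ± 0.23, Psmb9 -0.81 ± 0.26 and -0.86 ± 0.16, and H2-Q7 -1.72 ± 0.34 and -0.94 ± 0.18 in the same order. Tapbp had -0.02 ± 0.14 in HFD over LFD and -0.31 ± 0.14 in shYap over shCon tumours.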

How the data were processed

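RNA of tumour tissue was measured by sequencing in 18 libraries. The authors deposited 2 tables of estimated counts by gene, of which 59.7% were whole numbers in the diet table and 61.8% in the hairpin table. STAR 2.7.3a, Partek and DESeq2, with the builds GRCm38 and mm10, are named per the submitters' processing notes, without role or order; annotation, strand and read length are not given in the sources used here. Symbols, starts and strands matched GENCODE M21 for 97.4% and 97.2% of genes, and 22 of 23 symbols turned into dates were restored from their positions; gene ends are as in GENCODE. The shYap replicates 3 and 4 carry other numbers in the table and are named by their titles.

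Estimated counts were rounded and fitted per table over all genes in R 4.3.3 with edgeR 4.0.16 (filterByExpr, TMM, robust quasi-likelihood F test, Benjamini-Hochberg adjustment, threshold 0.05); all adjusted p are from this test unless DESeq2 is named. CPM use the TMM-scaled total of the genes tested, SE is that of the log2 fold change, and lengths are merged GENCODE exons. Alternatives were DESeq2 1.42.0, voom (limma 3.58.1), other scaling and filters, a replicate block, the closest HFD libraries (replicates 1 and 2, 3 and 4) summed, and each library left out. Scripts were tested on simulated data. The members, lists, markers and tests were chosen with earlier results of these data known. Values in every library are given for a list of 17 genes and for the member with the largest fall past the threshold; of each list up to 3 genes with the smallest p in HFD against LFD are named. Ctsl, Nfyb, Nfyc, Socs1, the ratios and per-library remarks were picked once their values were known. One gene of the interferon list is not reported here by name.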

Additional observations from a re-analysis of the deposited data

Results flagged for a closer look

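In libraries labelled shYap, the level of Tap1 in replicate 3 was 145 CPM, set apart from the other 3 shYap libraries, which held 87.2 to 92.0 CPM, by Dixon's test for a single outlying sample. The same test was run on 40 groups of values in each comparison, and chance alone marks about 1 in 20 groups. Library shYap replicate 3 was also the highest shYap library for H2-D1 and H2-Q4, and the lowest for H2-Aa, Cd74 and Ciita.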

How the results depend on the processing

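In HFD against LFD tumours, the count of lower members, 20, was 12 with the closest HFD libraries summed, 9 with library totals alone and 13 with the replicate block, and 14 to 24 with each library left out. For class I the count of 15 was 8 when summed and 6 with library totals, and 11 to 17 with a library left out. For class II the count of 5 was 10 in DESeq2, 3 with library totals, 3 with the replicate block and 3 to 11 with a library left out. Over all genes 2177 (12.9%) were lower and 2056 higher when summed, and 2216 (13.6%) lower and 4076 higher with library totals, against 3532 (21.6%) and 3178. The share of all genes that were lower was 15.6% with the replicate block, 24.7% in DESeq2 and 17.5% to 22.9% with a library left out. Library totals alone moved the median of all genes to 0.24, and that of the members to -0.57. In shYap against shCon tumours, 0 members passed under each edgeR and voom setting on all libraries, DESeq2 called 4 members (all 4 of class I), 286 lower and 124 higher genes, and leaving out a library gave 0 to 2 members, 0 to 2 class I members, 0 to 77 lower and 0 to 17 higher genes. Medians of the members kept their direction under all of these.

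The sign turned for genes without a call. For Tapbp in HFD over LFD it was 0.21 with library totals, 0.0045 in voom, 0.0021 without a filter, 0.0029 with the replicate block, 0.05 with upper-quartile factors, and -0.08 to 0.12 with a library left out. For H2-M5 it was 0.05 with library totals and -0.29 to 0.08 with a library left out. In shYap over shCon, H2-Q1 had -0.08 with library totals, -0.30 in voom, -0.19 with the replicate block, -0.00092 with upper-quartile factors and -0.46 to 0.64 with a library left out. H2-Q10 had -0.05 in voom, -0.03 with the replicate block and -0.23 to 0.55 with a library left out. The causes were not tested. Of 608 member values in the diet comparison, 504 kept direction and call, and of 526 in the hairpin comparison 505 did. Same-numbered pairs of libraries correlated at -0.5 to 0.315 in the diet table and at -0.052 to 0.182 in the hairpin table. Other pairs did so at -0.477 to 0.517 and at -0.437 to 0.458. With so few libraries these values do not settle whether replicate numbers pair them. In the hairpin table the replicate numbers are those of the titles, from which the columns of shYap replicates 3 and 4 differ. Counts limit the rarest genes, H2-Eb2, H2-M2, H2-Q1 and H2-Q2, some of whose libraries held under 3 counts.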

Other observations

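Outside the rule, 5 rows with a symbol beginning H2- were annotated as pseudogenes, and 4 of them could be tested. In HFD over LFD tumours the log2 fold changes were -1.12 ± 0.22 for H2-K2 (adjusted p = 0.00297), -1.20 ± 0.28 for H2-Q5 (0.00765), -1.30 ± 0.28 for H2-T10 (0.00521) and -1.49 ± 0.26 for H2-T-ps (0.00199). In shYap over shCon tumours they were 0.13 ± 0.31, -1.12 ± 0.33, -0.64 ± 0.23 and -0.41 ± 0.33 in the same order, none past the threshold. H2-Bl was too low to test in both tables. Reads of these rows may be shared with the protein-coding class I genes, which was not tested.

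Ratios within the pathway were as follows. H2-Aa over H2-Ab1 was 0.918 to 1.14 in HFD and 0.992 to 1.15 in LFD tumours, and 1.01 to 1.52 in shYap and 1.02 to 1.28 in shCon tumours. H2-Aa itself was 37.5 to 342 CPM in HFD and 147 to 821 CPM in LFD tumours. Cd74 over the sum of H2-Aa, H2-Ab1 and H2-Eb1 was 0.873 to 1.02 in HFD and 0.742 to 0.953 in LFD tumours, and 1.07 to 1.18 in shYap and 0.944 to 1.15 in shCon tumours. B2m over the sum of H2-K1 and H2-D1 was 0.637 to 0.742 in HFD and 0.581 to 1.03 in LFD tumours, and 0.780 to 0.906 in shYap and 0.790 to 1.03 in shCon tumours. These ratios were chosen after the values were seen and carry no test.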
